A study of Mus musculus with 6 samples.

Results

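The genes described here are Lgr4, Lgr5 and Lgr6, which encode the receptors for R-spondins, and Rnf43 and Znrf3, which encode the membrane ubiquitin ligases those receptors act on. They were taken by symbol from the deposited table of stiff against soft gels, which held all 5 of them among 15016 genes. RNA-seq came from 6 libraries of wild-type mouse organoids grown from cochlear progenitor cells, 3 kept in soft hydrogels and 3 in stiff hydrogels. Both groups had first been expanded for 8 to 10 days with EGF, bFGF, IGF, CHIR99021, valproic acid, 2-phospho-L-ascorbic acid and 616452. Both were then moved to a differentiation medium with 3 μM CHIR99021, which inhibits the kinase GSK3 and so activates Wnt signalling below its receptors, and 5 μM LY411575, which inhibits gamma-secretase and so blocks Notch cleavage. The organoids were divided between the gels at that differentiation stage. No untreated gel-free group and no group without the GSK3 inhibitor was analysed here, and the sources used here give neither the stiffness of the gels, the days spent in them, nor the age or strain of the mice. The labels number the libraries of each gel 1 to 3 without saying whether they were separate cultures or animals, so the p-values here speak only of library-to-library spread, part or all of which could be technical.

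R-spondins are secreted proteins that bind an Lgr receptor together with Rnf43 or Znrf3 and take the ligase off the cell surface. The ligases otherwise mark Frizzled receptors and their co-receptor Lrp6 for removal, so their loss leaves a cell more sensitive to Wnt ligands. Lgr5, Rnf43 and Znrf3 are themselves Wnt target genes in several tissues, the ligases as negative feedback. In the cochlea Lgr5 marks supporting cells that can divide or turn into hair cells in the newborn, and Lgr6 marks a narrower set of supporting cells.

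Of the 5 genes, Lgr5 was higher in stiff gels, and the other four were not called. Lgr5 RNA was 2.07 times as high in stiff as in soft gels, Lgr4 1.25 times, Rnf43 1.20 times, Lgr6 1.15 times and Znrf3 0.988 times, as ratios of group means in FPKM (fragments per kilobase of gene, scaled to sequencing depth). The 1 call of 5 stands beside 3.13% of the 11780 tested genes called higher and 2.68% called lower (limma, Benjamini-Hochberg adjusted p under 0.05). The groups did not overlap for the 3 receptors, with every stiff library above every soft one, and they overlapped for both ligases. Among all tested genes 15.5% had such a gap with the stiff libraries higher and 10.4% with the stiff libraries lower. In bulk RNA, fewer cells that express a gene and less of its RNA per cell cannot be told apart.

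**Figure D1:**
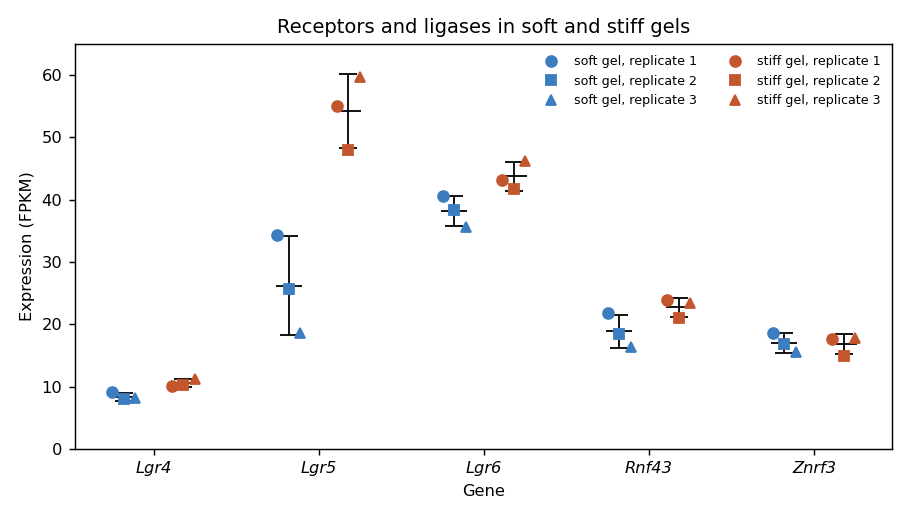
Expression of the 3 receptors and 2 ligases in FPKM (y axis) for each gene (x axis), with each point 1 library, blue for soft and orange for stiff gels, the horizontal bar the mean and the whiskers the SD over 3 libraries. The 3 stiff libraries of Lgr5 lie between 47.9 and 59.8 FPKM, all above the highest soft library at 34.4 FPKM, whereas the points of Znrf3 overlap.

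Depth was even, from 16108470 to 17899391 reads per library over the listed genes, and each of the 5 genes was well covered, from 729 reads (Lgr4 in soft replicate 2) to 5307 reads (Lgr6 in stiff replicate 1). Soft replicate 1 had the highest value of the soft libraries for each of the 5 genes and lay nearest to the stiff libraries for the receptors and Rnf43. Leaving it out therefore widens the gap by construction, and calls gained without it are no support for a difference.

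Lgr5 (chromosome 10, 115450314 to 115587780, minus strand, build GRCm38, which is mm10) was at 34.4, 25.6 and 18.5 FPKM in soft replicates 1 to 3. In stiff replicates 1 to 3 it was at 55.1, 47.9 and 59.8 FPKM. The soft libraries were spread more widely than the stiff ones, at 26.2 ± 7.93 against 54.3 ± 5.97 FPKM (SD, n = 3 each), and the lowest stiff library was still well above the highest soft one. The log2 fold change was 1.06 ± 0.18 (SE; 95% interval 0.64 to 1.48; limma adjusted p = 0.0159), a larger absolute change than in 99.4% of tested genes. It was called in 3 of the 6 fits that leave out 1 library. Leaving out soft replicate 2, stiff replicate 1 or stiff replicate 3 ended the call (limma adjusted p = 0.0685, 0.0785 and 0.0654), although the log2 fold change remained at 1.07, 1.05 and 0.99. A gene on the opposite strand, A930009A15Rik, lies within the Lgr5 locus in GENCODE M21, but 0 exon bases are shared, so exonic reads of the unstranded libraries belong to 1 of the genes.

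Lgr4 (chromosome 2, 109917647 to 110014257, plus strand), the most broadly expressed receptor of the family across tissues, had the lowest level of the 5 genes. It was at 9.12, 7.93 and 8.11 FPKM in soft replicates 1 to 3 and at 10.1, 10.2 and 11.2 FPKM in stiff replicates 1 to 3. Every stiff library was above every soft one, and the means of 8.39 ± 0.638 and 10.5 ± 0.606 FPKM (SD, n = 3 each) lay further apart than the SD of either gel. The log2 fold change of 0.30 ± 0.08 (SE; 95% interval 0.13 to 0.47) did not pass the threshold over all genes (limma adjusted p = 0.0554). It passed by limma-voom on reads rebuilt from the FPKM values (0.33, adjusted p = 0.0347), a test that called 4.14% of genes higher and 3.69% lower. In the authors' deposited table Lgr4 was also higher (log2 fold change 0.30, q = 0.0367), a threshold that 4.09% of the genes tested here passed as higher and 5.37% as lower. Of the fits that leave out 1 library it passed in the one without soft replicate 1 (adjusted p = 0.016 by limma), and the other 5 gave adjusted p of 0.104 to 0.189.

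The stretch before the Lgr4 start is shown because the gels differ in stiffness and the medium acts on Wnt and Notch, so the letters bound by TEAD, TCF/LEF and RBPJ factors are those a reader would look for. It covers chr2:109917397-109917646 on the plus strand, and the capitals mark the 6 letters CATTCC bound by TEAD factors.
Lgr4: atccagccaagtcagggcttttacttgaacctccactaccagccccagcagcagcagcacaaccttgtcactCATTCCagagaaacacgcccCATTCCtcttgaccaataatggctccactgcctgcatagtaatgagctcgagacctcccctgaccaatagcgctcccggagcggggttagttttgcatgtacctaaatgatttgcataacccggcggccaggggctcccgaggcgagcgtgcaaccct
The motifs searched on both strands were CATTCC for TEAD, CTTTGAT or CTTTGAA for TCF/LEF, the factors beta-catenin acts through, and TGGGAA for RBPJ, the factor Notch acts through. CATTCC and the reverse strand of TGGGAA can share 4 letters, but no match overlapped another here. The Lgr4 window held 2 matches of CATTCC, beginning 178 and 158 bases before the start, and none of the others. Of 32851 RefSeq promoter windows of 300 bases (250 before to 50 after a start, GRCm38.p6), 14.7% held CATTCC at least once, 1.36% at least 2 times, 8.65% a TCF/LEF motif and 25.6% TGGGAA. These matches are a description of the letters and no evidence of binding.

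Lgr6 (chromosome 1, 134983300 to 135105374, minus strand) was at 40.5, 38.4 and 35.6 FPKM in soft replicates 1 to 3. In stiff replicates 1 to 3 it was at 43.2, 41.8 and 46.2 FPKM. The libraries did not overlap, yet the gap between the highest soft and the lowest stiff library was small, and the means were 38.2 ± 2.47 and 43.7 ± 2.28 FPKM (SD, n = 3 each). The log2 fold change was 0.19 ± 0.07 (SE; 95% interval 0.03 to 0.35) and did not pass (limma adjusted p = 0.146; authors' deposited table, q = 0.21). Lgr6 was not called under any alternative tried, and came nearest in the fit that omits soft replicate 1 (adjusted p = 0.0614 by limma).

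Its upstream stretch, chr1:135105375-135105526 on the minus strand, lies before the outermost RefSeq start of the gene and is given for comparison with that of Lgr4. The capitals mark TGGGAA, the single RBPJ match, which begins 201 bases before the transcription start on which the listed window is set.
Lgr6: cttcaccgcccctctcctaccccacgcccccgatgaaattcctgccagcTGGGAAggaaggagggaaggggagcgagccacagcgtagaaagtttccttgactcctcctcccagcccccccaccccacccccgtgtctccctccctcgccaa
The Lgr6 window held 0 matches of the TEAD and TCF/LEF motifs, and the windows at the 2 listed starts of Rnf43 held 0 matches of all the motifs. The absence of these letters says nothing about the factors.

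Rnf43 (chromosome 11, 87663087 to 87735539, plus strand) was at 21.7, 18.4 and 16.4 FPKM in soft replicates 1 to 3 and at 23.8, 20.9 and 23.4 FPKM in stiff replicates 1 to 3. Soft replicate 1 lay above stiff replicate 2, so the groups overlapped. The means were 18.9 ± 2.69 and 22.7 ± 1.56 FPKM (SD, n = 3 each), and the log2 fold change of 0.26 ± 0.10 (SE; 95% interval 0.04 to 0.49) was not called (limma adjusted p = 0.163; authors' deposited table, q = 0.166). Without soft replicate 1 it was 0.37 and called (limma adjusted p = 0.0191), in a fit that called 7.28% of genes higher and 6.5% lower. The other 5 fits without 1 library gave log2 fold changes from 0.17 and adjusted p of 0.173 to 0.461.

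Znrf3 (chromosome 11, 5276329 to 5444847, minus strand) was at 18.6, 16.8 and 15.6 FPKM in soft replicates 1 to 3. In stiff replicates 1 to 3 it was at 17.6, 15.0 and 17.8 FPKM. The libraries were interleaved and the means nearly equal, at 17.0 ± 1.54 and 16.8 ± 1.59 FPKM (SD, n = 3 each). The log2 fold change was -0.02 ± 0.09 (SE; limma adjusted p = 0.949), and its 95% interval of -0.22 to 0.19 leaves out a change as large as that of Lgr5.

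The order of levels, which FPKM allows to be compared between genes because it is per length, differed between gels at the top. In soft gels it ran Lgr6, Lgr5, Rnf43, Znrf3 and Lgr4, and in stiff gels Lgr5 came before Lgr6. Lgr6 exceeded Lgr5 in each of the 3 soft libraries, and Lgr5 exceeded Lgr6 in each of the 3 stiff libraries. In soft gels the library values of Lgr5 and Rnf43 overlapped, as did those of Rnf43 and Znrf3, while Lgr6 and Lgr4 stood clear of their neighbours. In stiff gels the values of all neighbours in the order were apart, the narrowest gap being that between Lgr5 (lowest 47.9 FPKM) and Lgr6 (highest 46.2 FPKM). Against all listed genes, the mean over the 6 libraries of Lgr6 and of Lgr5 was above 89.5% and 89.2% of genes, that of Rnf43 above 77.5%, that of Znrf3 above 72.7% and that of Lgr4 above 57.9%.

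The receptors did not keep their proportions. Lgr5 made up 40.9%, 35.6% and 29.8% of the summed receptor FPKM in soft replicates 1 to 3 and 50.8%, 48.0% and 51.0% in stiff replicates 1 to 3. The ratio of Lgr5 to Lgr4 within a library was 3.77, 3.23 and 2.29 in soft gels and 5.43, 4.69 and 5.32 in stiff gels. All stiff ratios were above all soft ones, with a mean log2 difference of 0.76 (exact permutation test over libraries, two-sided p = 0.1, the smallest that 3 against 3 can give). The ratio of Lgr5 to Lgr6, chosen after the values were seen, was 0.848, 0.667 and 0.521 in soft and 1.28, 1.15 and 1.29 in stiff gels (mean log2 difference 0.89; exact permutation p = 0.1).

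The ligases also parted from each other. The ratio of Rnf43 to Znrf3, likewise chosen after the values were seen, was 1.17, 1.10 and 1.05 in soft replicates 1 to 3 and 1.35, 1.40 and 1.31 in stiff replicates 1 to 3. The stiff libraries were again all higher, by a mean of 0.29 on the log2 scale, with no overlap although Rnf43 itself overlapped between gels (exact permutation p = 0.1). The summed FPKM of the receptors was 72.7 ± 10.9 in soft and 109 ± 8.66 in stiff gels, and that of the ligases 35.9 ± 4.23 and 39.5 ± 3.13 (SD, n = 3 each). Receptor FPKM per ligase FPKM was 2.08, 2.05 and 1.94 in soft replicates 1 to 3 and 2.62, 2.78 and 2.85 in stiff replicates 1 to 3, a mean log2 difference of 0.44. The gels did not overlap in any of the 4 ratios, so leaving out 1 library could not reverse a direction. None of the ratios can reach a p under 0.05 with these numbers of libraries.

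**Figure D2:**
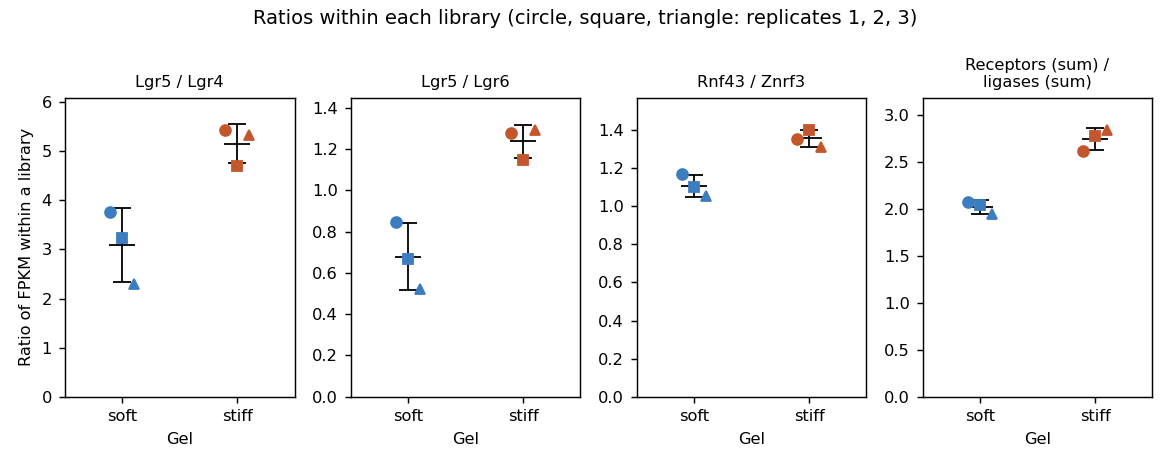
Ratios of FPKM within each library (y axes, each from 0) in soft and stiff gels (x axis), with circles, squares and triangles for replicates 1, 2 and 3, the bar the mean and the whiskers the SD over 3 libraries. In each panel the stiff libraries lie above the soft ones, at 4.69 to 5.43 against at most 3.77 for Lgr5 to Lgr4.

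Rspo1 and Rspo2, which encode ligands of the receptors, were at no more than 0.181 and 0.124 FPKM in any library and fell under the filter of 1 FPKM. Rspo3 and Rspo4 were not among the listed genes, so no values can be given for them. Of the other leucine-rich repeat receptors related to the Lgr group, the thyrotropin receptor gene Tshr was likewise under the filter, with means of 0.0154 ± 0.00651 (soft) and 0.0477 ± 0.0231 (stiff) FPKM (SD, n = 3 each).

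The Frizzled receptors and co-receptors that the ligases remove from the surface were all expressed, and 1 of 12 was called (3.13% of all tested genes were called higher and 2.68% lower). Before adjustment 6 of the 12 had a p under 0.05, against 21.7% of all tested genes. Fzd9 had means of 2.85 ± 0.0498 and 4.48 ± 0.532 FPKM (SD, n = 3 each), without overlap between gels. It rose by 0.51 ± 0.09 on the log2 scale (SE; limma, adjusted p = 0.0159); the other 11 were not called. Fzd7, the most abundant by the mean over the 6 libraries, was at 58.7 and 51.5 FPKM (log2 fold change -0.18, limma adjusted p = 0.0883), and Fzd10 at 41.6 and 54.0 FPKM (0.38, 0.059). Both were past the threshold of the authors' deposited table, Fzd7 lower (q = 0.0399) and Fzd10 higher (q = 0.0102), and limma-voom also called Fzd10 higher (adjusted p = 0.0376). Fzd6 stood at 45.1 and 47.0 FPKM and Lrp6 at 17.2 and 17.1 FPKM. Fzd1, Fzd2 and Fzd4 had higher means in stiff gels with log2 fold changes of 0.18, 0.21 and 0.25, while Fzd3, Fzd5, Fzd8 and Lrp5 lay between -0.17 and 0.08, none of them called. The median log2 fold change of the 12 genes was 0.07, beside 0.03 over all tested genes.

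Among 19 tested Wnt target and feedback genes 1 rose and 2 fell, beside 3.13% of all tested genes called higher and 2.68% lower. Their median log2 fold change was -0.14. Before adjustment 8 of the 19 had a p under 0.05 (limma), against 21.7% of all tested genes. A positive log2 fold change was found in 8 of the 19, beside 6929 of all 11780 tested genes. Axin2, a scaffold of the beta-catenin destruction complex and a widely used Wnt readout, was at 74.9, 69.7 and 62.8 FPKM in soft replicates 1 to 3 and at 60.0, 60.4 and 60.3 FPKM in stiff replicates 1 to 3. Its stiff libraries were all below its soft ones, but the difference did not pass the test (-0.19 ± 0.07 on the log2 scale, SE; adjusted p = 0.159 by limma). Nkd2, an antagonist of Dishevelled, fell by 0.28 on the log2 scale, with means of 39.3 and 32.0 FPKM (adjusted p = 0.046 by limma). That call was lost without the filter (adjusted p = 0.060) and without the trend (0.0625). The proto-oncogene Myc fell by the same 0.28 (adjusted p = 0.0323 by limma). Kremen1, which encodes a receptor for the Dickkopf inhibitors, rose by 0.40, with means of 40.5 and 53.8 FPKM (adjusted p = 0.0194 by limma). Lef1, a TCF/LEF factor, was at 31.9 and 27.5 FPKM without overlap (limma adjusted p = 0.0907). The authors' deposited table calls Lef1 lower (q = 0.0311). Apcdd1 (63.3 and 47.5 FPKM, limma adjusted p = 0.0649) and Wif1 (72.6 and 51.4 FPKM, 0.0613) were not called by limma. Both had every stiff library below every soft one, and the deposited table calls both lower (q = 0.000727 and 0.000431). It also calls Dkk1 lower (q = 0.00404), which was under the filter at 0.887 and 0.281 FPKM, and Kremen1 higher (q = 0.000274). Neither of the next pair was called by limma, the Wnt deacylase Notum at 30.0 and 25.0 FPKM (adjusted p = 0.187) and the transcription factor Sp5 at 47.7 and 39.2 FPKM (0.294). Nkd1, Tnfrsf19 and Ccnd1, abundant targets of the same list, were at 171 and 178, 162 and 168, and 164 and 170 FPKM, none called. The stem cell factor Ascl2, which marks intestinal stem cells together with Lgr5, was under the filter at 0.0936 and 0.0241 FPKM.

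**Figure D3:**
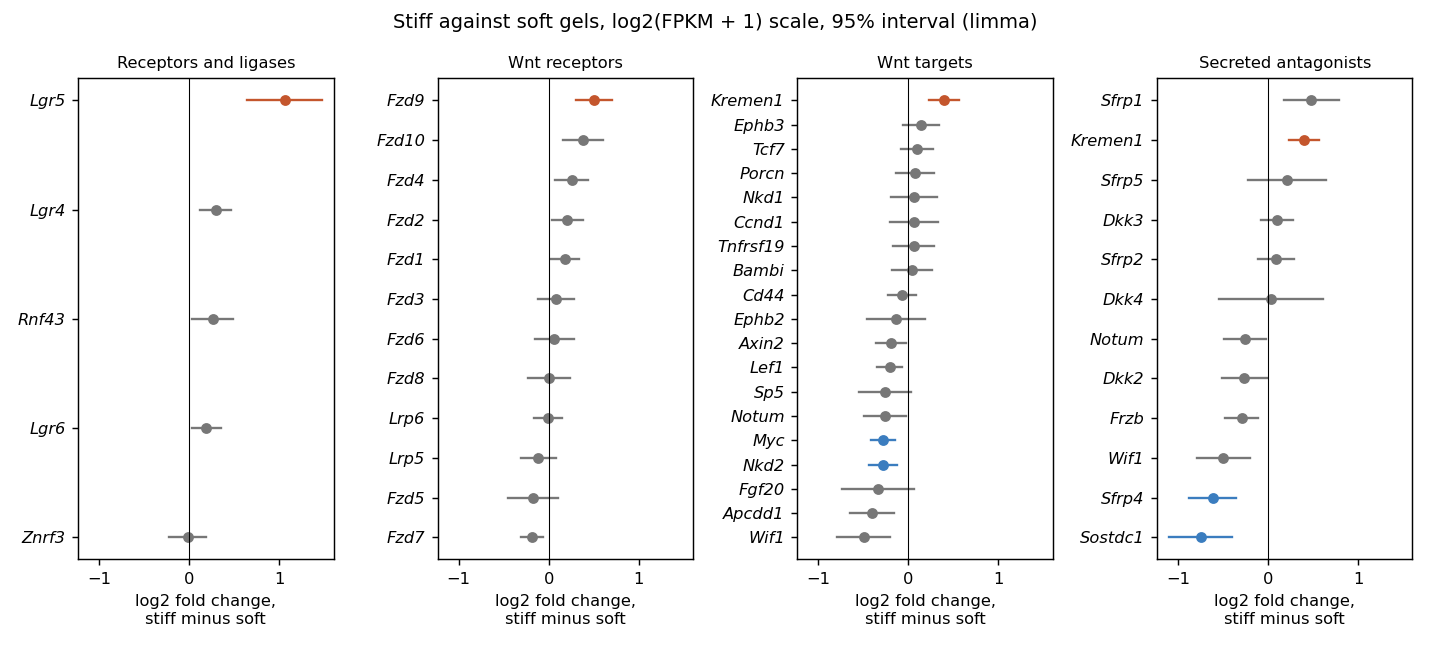
Log2 fold changes of stiff minus soft gels on the log2(FPKM + 1) scale (x axes) for the receptors and ligases, the Frizzled and Lrp receptors, Wnt targets and secreted Wnt antagonists, with 95% intervals from limma; orange and blue mark genes called higher and lower. Lgr5 lies at 1.06, and the called Wnt targets other than Kremen1 lie left of 0.

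Of the 12 tested secreted or membrane Wnt antagonists 1 rose (Kremen1, counted above) and 2 fell, beside 3.13% of all tested genes called higher and 2.68% lower. Their median log2 fold change was -0.11, and 8 had an unadjusted p under 0.05 (limma), against 21.7% of all tested genes. Sostdc1, a BMP and Wnt antagonist, fell by 0.75 on the log2 scale, with means of 1.55 and 0.496 FPKM (adjusted p = 0.0296 by limma). At this low level the pseudocount sets the size, which was -1.44 with a pseudocount of 0.1, -1.60 by limma-voom and -1.68 in the authors' deposited table. Sostdc1 passed the filter of 1 FPKM only through the soft gels, where it was high. Sfrp4, a secreted Frizzled-related protein, fell by 0.61, with means of 3.86 and 2.16 FPKM (adjusted p = 0.0194). Sfrp1, the most abundant of the list, was at 97.7 ± 15.6 and 137 ± 22.2 FPKM (SD, n = 3 each) and missed the threshold (adjusted p = 0.0716 by limma). Both limma-voom (adjusted p = 0.0459) and the authors' deposited table (q = 0.00278) call it higher. In this list the deposited table also calls Dkk2 lower (q = 0.0476), besides Wif1 and Dkk1 given above. In the destruction complex list 0 of 14 genes were called (limma; 3 had an unadjusted p under 0.05, against 12.7% of all tested genes higher and 9.04% lower at that level), with Ctnnb1, which encodes beta-catenin, at 313 and 343 FPKM. The deposited table calls Apc2 of the destruction complex list higher (1.80 and 2.52 FPKM, q = 0.0189). The TCF/LEF factor list had 0 of 8 called (1 at an unadjusted p under 0.05). Among 15 tested genes of other membrane ligases and regulators of receptor turnover, Daam2, a formin that acts with Dishevelled, rose from 5.48 to 7.61 FPKM and the ligase Rnf128 fell from 2.59 to 1.74 FPKM. These were the only limma calls of the 15, and 5 had an unadjusted p under 0.05 (limma). Over all tested genes 3.13% were called higher and 2.68% lower, and 21.7% had such a p. The authors' deposited table also calls Daam1 higher (q = 0.00644) and Rnf149 lower (q = 0.0228). Sdc4, a heparan sulphate proteoglycan and the most abundant of that list, was at 57.5 and 62.7 FPKM and not called.

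Genes of cochlear supporting cells and their precursors moved with Lgr5. Of 21 tested genes 9 rose and 0 fell, beside 3.13% of all tested genes called higher and 2.68% lower. Their median log2 fold change was 0.56, and 17 had an unadjusted p under 0.05 (limma), against 21.7% of all tested genes. The list was chosen with earlier results of these data known, so its count is no independent evidence. Otoa, which encodes the otoancorin of supporting cell surfaces, had means of 8.12 ± 0.500 and 18.6 ± 2.16 FPKM (SD, n = 3 each) and rose by 1.10 ± 0.09 on the log2 scale (SE; adjusted p = 0.00171 by limma). Tecta and Otog, genes of extracellular membrane proteins of the inner ear, rose with log2 fold changes of 1.08 and 0.98, and the Notch effector gene Hey1, the fringe gene Lfng and the ligand gene Jag1 with 0.75, 1.13 and 0.81. Sox2, Isl1 and the connexin gene Gjb6 rose as well (1.33, 0.87 and 0.45). Gjb6 passed the filter of 1 FPKM only through the stiff gels, where it was high (means of 0.663 and 1.27 FPKM). It was called in 0 of the 6 fits that leave out 1 library (limma adjusted p = 0.0508 to 0.141). Its place among the 9 is therefore no support for a difference. S100a1, the most abundant gene of the list, was at 472 and 614 FPKM, short of a call (adjusted p = 0.0559 by limma). Both limma-voom (adjusted p = 0.0325) and the authors' deposited table (q = 0.00344) call it higher. The deposited table also calls Gjb2 (q = 0.0127) and Gata3 (q = 0.00158) higher, which limma did not call. The lists held 23 called genes besides Lgr5, and of these Otoa alone kept its call whichever library was left out. The other 22 were lost in at least 1 such fit (adjusted p up to 0.153 by limma). Leaving out soft replicates 1, 2 and 3 in turn ended 1, 20 and 13 calls, and leaving out stiff replicates 1, 2 and 3 ended 20, 8 and 16.

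Marker sums of other cell types stood as follows beside these results, and their part in the rise of Lgr5 was not tested. The supporting cell list, 24 of 25 genes listed, summed to 1043 to 1329 FPKM in soft and 1494 to 1585 FPKM in stiff libraries, with Prox1, Fgfr3 and Gjb1 below 1 FPKM throughout. Glial markers, 8 of 9 listed, summed to 113 to 141 and 142 to 168 FPKM, led by Sox10, which otic epithelium also expresses, and Pmp22 and S100b were among those that rose. Mesenchyme markers, 12 of 13 listed, summed to 1216 to 1267 and 1362 to 1370 FPKM, led by Vim. Of 10 tested, 0 were called and 3 had an unadjusted p under 0.05 (limma). Over all tested genes 3.13% were called higher, 2.68% lower, and 21.7% had such a p. These 3 went opposite ways, Col3a1 at means of 72.7 and 35.1, Dcn at 125 and 181, and Lum at 326 and 411 FPKM. Col1a1 and Col1a2 were below 1 FPKM, and the authors' deposited table calls Col1a2 lower (q = 5.24e-05). Hair cell markers, 12 of 17 listed, summed to 52.5 to 61.2 and 72.8 to 80.1 FPKM. Ush1c, the most abundant, and Calb2 rose, but 7 of the 12 were below 1 FPKM, among them Gfi1, Otof and Tmc1. Espn was lower in stiff gels without overlap, at 2.95 and 2.19 FPKM, and not called (limma adjusted p = 0.138). Myo7a (1.64 FPKM in both gels) and Myo6 (21.8 and 23.3 FPKM) were not called either. Neuron markers, 5 of 10 listed, summed to 8.49 to 11.6 and 5.89 to 6.84 FPKM, with Gap43 the most abundant by the mean over all libraries and lower in stiff gels (log2 fold change -1.40). Map2 went the other way without overlap, at 2.57 and 3.28 FPKM. It was not called by limma (adjusted p = 0.128) but passed as higher in the authors' deposited table (q = 0.0268). Proliferation markers, all 8 listed and led by Pcna, summed to 376 to 440 and 375 to 426 FPKM. Of these 8, 0 were called and 0 had an unadjusted p under 0.05 (limma). The shares over all tested genes were 3.13% called higher, 2.68% lower and 21.7% with such a p. Immune markers, 3 of 7 listed, summed to 4.66 to 6.70 and 5.09 to 6.86 FPKM, nearly all of it Cd68.

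The genes with the pattern most like that of Lgr5 over the 6 libraries, by Pearson correlation on log2(FPKM + 1) among 8552 other genes with a mean of at least 5 FPKM, were St6galnac2 and Galnt3, which encode glycosyltransferases, Ndufa13, a subunit gene of mitochondrial complex I, Emid1 and Rflnb. Their r with Lgr5 was between 0.996 and 0.998. St6galnac2 was at 54.4, 48.0 and 41.5 FPKM in soft replicates 1 to 3 and at 70.0, 63.4 and 71.0 FPKM in stiff replicates 1 to 3, so its libraries stood in the order of those of Lgr5, with a smaller gap between gels. Ndufa13 followed the same order over a range of 51.6 to 60.2 FPKM without a call (adjusted p = 0.214 by limma), whereas the other four were called higher, with log2 fold changes of 0.46 to 0.58. By rank all of these 5 had the same order of libraries as Lgr5, as did 99 genes in all. Among the receptors and ligases, r with Lgr5 was 0.97 for Lgr6, 0.95 for Lgr4, 0.95 for Rnf43 and 0.32 for Znrf3. These are descriptions over 6 libraries that share 2 gel groups.

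**Figure D4:**
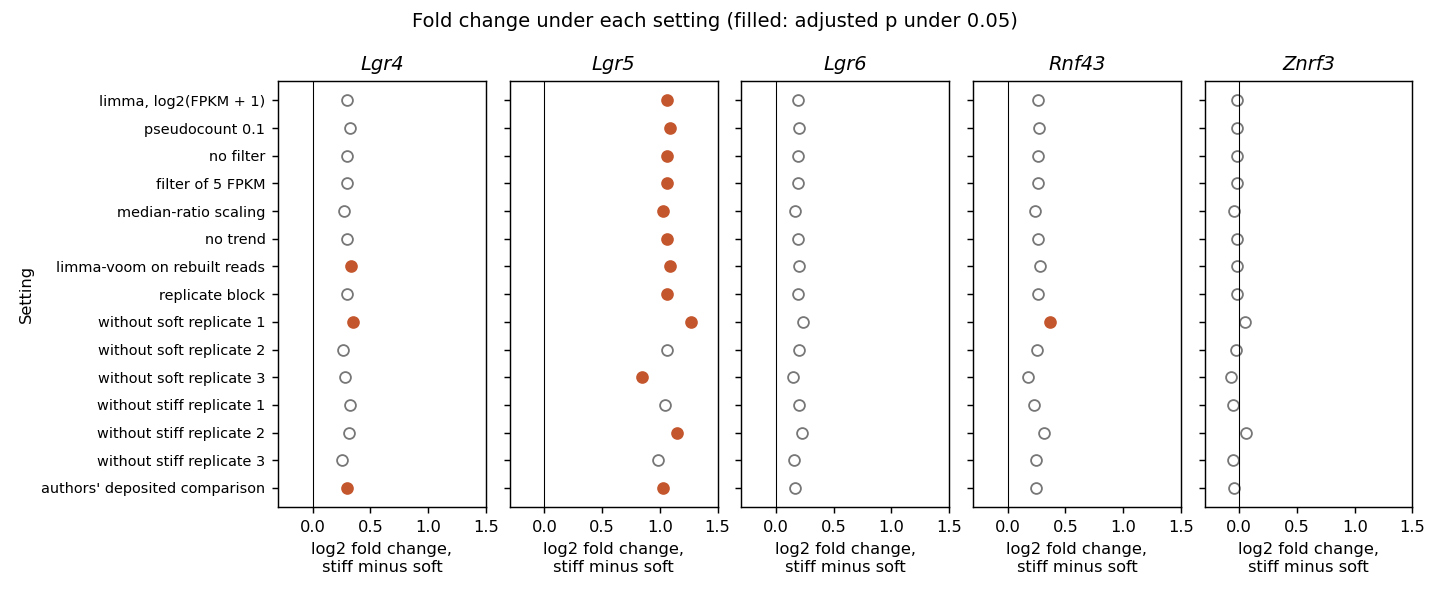
Log2 fold change of stiff minus soft gels (x axes) of each receptor and ligase under every setting tried (y axis), with filled points where the adjusted p was under 0.05. Lgr5 stays between 0.84 and 1.27 and is unfilled in 3 of the fits that leave out a library, Lgr6 is unfilled throughout, and Znrf3 lies on both sides of 0.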

How the data were processed

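Whole-organoid RNA was sequenced in 3 libraries from soft and 3 from stiff gels. Per the submitters' processing notes, reads were aligned with TopHat2 2.1.1 to mm10 and compared with DESeq2; the sources used here name no counter or annotation. The 6 expression columns deposited by the authors were read as FPKM from their values, since the header says only expression. The base mean deposited by the authors is a signal, the mean of their normalized counts. The log2 fold change, its error, the linear fold change (a ratio), the test score, the p-value and the q-value are the authors' comparison, per the file headers.

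Reads were rebuilt from FPKM and base mean: 100% of values came out whole within 0.05 reads. The main test was limma 3.58.1 (R 4.3.3) with an intensity trend on log2(FPKM + 1), all 6 libraries, genes with a mean of at least 1 FPKM in either gel, with calls at 0.05 after Benjamini-Hochberg adjustment; this scale understates changes of low genes. On simulated data for this comparison (11728 genes), 72% of genes changed 1.5-fold and 100% of those changed 2-fold were recovered, with 7 false calls among 179. The simulation gave every gene a biological coefficient of variation of 10%. Lgr5 in soft gels was spread more widely than that (26.2 ± 7.93 FPKM, SD, n = 3), so these shares need not hold for the members. Ratios were compared by exact permutation (scipy 1.17.1). Groups come from the sample titles, and no batch is labelled. Genes named were all 5 members, the called and the most abundant gene of each of 15 lists, set Wnt genes and the 5 genes most like Lgr5. Some other list members are named as well. The members and lists were chosen with earlier results of these data known. Coordinates and promoter windows are from RefSeq (GRCm38.p6; coordinates matched 5 of 5 genes, windows Lgr4, Lgr6 and Rnf43). Some genes that this rule names are not reported here.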

Additional observations from a re-analysis of the deposited data

How the results depend on the processing

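Lgr5 kept its call with a pseudocount of 0.1, without the filter, with a filter of 5 FPKM, with median-ratio scaling, without the trend, by limma-voom, with the replicate block and in the authors' deposited comparison. Leaving out 1 library, its log2 fold change ranged from 0.84 to 1.27 and it was called in 3 of 6 fits. In the same fits Lgr4 ranged from 0.25 to 0.35, Lgr6 from 0.14 to 0.24, Rnf43 from 0.17 to 0.37 and Znrf3 from -0.073 to 0.060, changing sign without soft replicate 1 (0.048) and without stiff replicate 2 (0.060). Lgr4 became called by limma-voom (0.33), in the authors' deposited comparison (0.30) and without soft replicate 1. The number of members called higher went from 1 to 2 by limma-voom and in the authors' deposited comparison, and from 0 to 3 over the fits without 1 library. The cause was not tested beyond the fewer samples of those fits. Over all tested genes, those fits called 50 (without soft replicate 2) to 860 (without soft replicate 1) genes higher and 15 to 767 lower, against 369 and 316 with all libraries. The 4 ratios kept their direction under all alternatives, although leaving out 1 library or adding the replicate block could not have changed it.

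Of 54 other named genes, 50 kept their side of the threshold with the replicate block, 3 lost their call (Nkd2, Myc and Rnf128, adjusted p = 0.0536, 0.0586 and 0.0586) and 1 gained it (Sfrp1, 0.0146). The block (381 genes higher and 329 lower, against 369 and 316) left the members' calls as they were (Lgr5 adjusted p = 0.0119, Lgr4 0.0866). The deviations of same-numbered libraries from their gel means correlated with r = 0.00873, 0.219 and -0.211, and not every library correlated best with its own number. The 3 deviations within a gel sum to 0, so these r depend on each other. They cannot tell whether the libraries were paired. Uncalled genes near 0 changed sign. Fzd8 did so in the authors' deposited comparison (-0.015), with median-ratio scaling (-0.020) and in 4 fits without 1 library (range -0.072 to 0.10). Over those fits Lrp6 ranged from -0.066 to 0.025, Fzd6 from -0.031 to 0.16, Nkd1 from -0.033 to 0.19, Tnfrsf19 from -0.039 to 0.18 and Ccnd1 from -0.022 to 0.19. Median-ratio scaling moved all log2 fold changes by a median of -0.03. Of the counts of called genes per list and alternative, 338 stayed equal or within 1.5 times and 82 did not. Counts of 0 in both fits were taken as equal. The R-spondin list and that of the other LGR family receptors had 0 tested genes in the main fit. The 338 therefore overstates how stable the counts were. Of the 5 genes most like Lgr5, 4 remained with a mean of at least 1 FPKM. The members had at least 729 reads in each library.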
